A study of Homo sapiens with 10 samples.

Results

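The genes described here encode the machinery that copies nuclear DNA and the enzymes that supply its deoxynucleotides. They were chosen by name, 51 genes in all, and each matched exactly 1 of the 61587 rows of the count table. Origin licensing takes 15 of them, the replication fork (helicase activation, polymerases, clamp and loader, single-strand binding, strand processing and fork protection) 32, and nucleotide supply 4. All 51 reached 200 counts summed over the samples, so that none was lost to the filter on low counts and all are among the 19006 genes tested.

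The samples were RPTEC/TERT1 cells, a human renal proximal tubular epithelial line immortalised by expression of telomerase, which both groups carry. The irradiated group (n = 5) received 10 Gy of gamma rays and the control group (n = 5) was mock-irradiated, and polyA RNA was collected from both 7 days later for bulk RNA-seq. Replicates are numbered 1 to 5 in both groups, and an irradiated and a control sample of the same number are called a pair below. All samples are of a single cell line, and nothing states that the replicates were separate cultures, so that p-values measure the spread between these samples, which may be technical. Library totals ran from 66269311 to 131555873 counts.

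Before a cell enters S phase, the origin recognition complex (ORC) together with CDC6 and CDT1 loads the ring-shaped MCM2-7 helicase onto DNA, and geminin (GMNN) blocks CDT1 once S phase has begun. The kinase CDC7 with its activator DBF4, the GINS complex, CDC45 and MCM10 then turn the loaded ring into a moving helicase, and polymerases, the sliding clamp and its loader copy the opened strands. Most renal tubular cells divide rarely, and many of these genes are transcribed mainly in cells that are about to enter or are in S phase.

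Levels are in TMM-normalised CPM, which scales the counts of each library to the same total after trimmed-mean adjustment. They compare samples for 1 gene, not genes of different length. Irradiated and control samples were compared by edgeR's quasi-likelihood test on counts with replicate number as a block, adjusted by the Benjamini-Hochberg method over the 19006 genes tested, and a gene is said to have fallen or risen where this adjusted p-value was under 0.05. Of all genes tested, 46.6% passed in either direction, 22.7% as lower and 23.9% as higher. The median log2 fold change of all genes tested was -0.01 (-0.09 when libraries were scaled by their size alone).

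The epithelial markers KRT8 (796 to 1230 CPM over the 10 samples), KRT18 (194 to 323), PAX8 (468 to 627), EPCAM (253 to 365) and CDH1 (181 to 297) were present in every sample. CDH1 fell by a small amount (log2 fold change -0.18), and the other epithelial markers did not pass. The proximal tubule markers HNF4A, SLC34A1, LRP2, SLC22A6 and SLC5A12 were at or near 0. Other proximal tubule markers were detected, with ANPEP at 188 to 463, GGT1 at 7.05 to 14.2, CUBN at 3.24 to 5.92, AQP1 at 1.04 to 2.07 and SLC5A2 at 0.139 to 0.414 CPM, and AQP1 fell (log2 fold change -0.61). Of the other nephron segments, UMOD was at 0 and SLC12A1, a transporter of the thick ascending limb, was at 17.3 to 399.6 CPM and fell (log2 fold change -1.80). Markers of fibroblasts, endothelium and leukocytes were below 2 CPM in every sample, except COL1A1 at 15.2 to 39.1. COL1A1 and the endothelial PECAM1 rose (log2 fold change 0.78 and 0.72), and the part of such cells in the results was not tested. MKI67, a marker of cells in cycle, stood at 76.7, 220.4, 60.4, 234 and 217 CPM in control replicates 1 to 5 and at 26.2, 15.3, 25.4, 29.6 and 23.5 in irradiated replicates 1 to 5. CDKN1A, which encodes the cell cycle inhibitor p21, stood at 80.9, 80.3, 208, 66.7 and 74.3 CPM in controls and between 584 and 768 CPM in irradiated samples. MKI67 was thus lower in controls 1 and 3 than in controls 2, 4 and 5, and CDKN1A was highest among controls in control 3.

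The controls were not alike for the replication genes either. Control replicates 1 and 3 held the 2 lowest control values for 48 of the 51 genes, where 20.6% of all genes tested showed this. The exceptions were ORC2, DBF4 and RPA3. The mean over the 51 genes was 3.65, 4.59, 3.62, 4.54 and 4.52 log2 CPM in control replicates 1 to 5 and 3.42, 3.37, 3.54, 3.60 and 3.49 log2 CPM in irradiated replicates 1 to 5. Controls 1 and 3 therefore lay close to the irradiated samples and the other 3 controls about 1 log2 unit above them. The main counts below are given with all samples and again without replicates 1 and 3. MKI67 was low in the same 2 controls, and its part in the results was not tested.

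Irradiated RPTECs held less RNA of most replication genes. Of the 51 genes, 35 fell after irradiation, where 22.7% of all genes tested fell, and 0 rose, where 23.9% of all genes tested rose. DESeq2 and limma-voom also called 0 of them higher, and at an unadjusted p under 0.05 in edgeR 1 was higher, ORC3. The median log2 fold change of the 51 was -0.67. A fall of more than 2-fold was found for 14 genes, where 4.06% of all genes tested fell by that much. These were TK1 (-1.84), RRM2 (-1.76), MCM10 (-1.67), CDC45 (-1.59), ORC1 (-1.45), CDT1 (-1.44), CLSPN (-1.44), PRIM1 (-1.42), POLE2 (-1.18), GINS2 (-1.16), MCM6 (-1.14), CDC6 (-1.09), DBF4 (-1.02) and RRM1 (-1.0), each value being a log2 fold change. In bulk RNA, fewer cells that express a gene and less of its RNA per cell cannot be told apart. Without replicates 1 and 3 together, 44 genes fell and 23 of them by more than 2-fold. These replicates were set aside because their controls are low for these genes, so that larger falls follow from the choice and are no sign of stability. Without replicate 5 the count of genes that fell was 22, and the count past 2-fold was 9 without replicate 2, 9 without replicate 4 and 8 without replicate 5. None of the 51 genes rose in these fits, except ORC3 without replicate 2 (log2 fold change 0.21, edgeR adjusted p = 0.0319, with a range of 0.0319 to 0.538 over all settings). Over all genes tested, 4307 of 19006 fell in the main fit, 2943 of 18244 without replicate 5 and 4185 of 17388 without replicates 1 and 3. Falls past 2-fold over all genes tested numbered 771 in the main fit, 777 without replicate 2, 674 without replicate 4, 680 without replicate 5 and 675 without replicates 1 and 3.

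**Figure D1:**
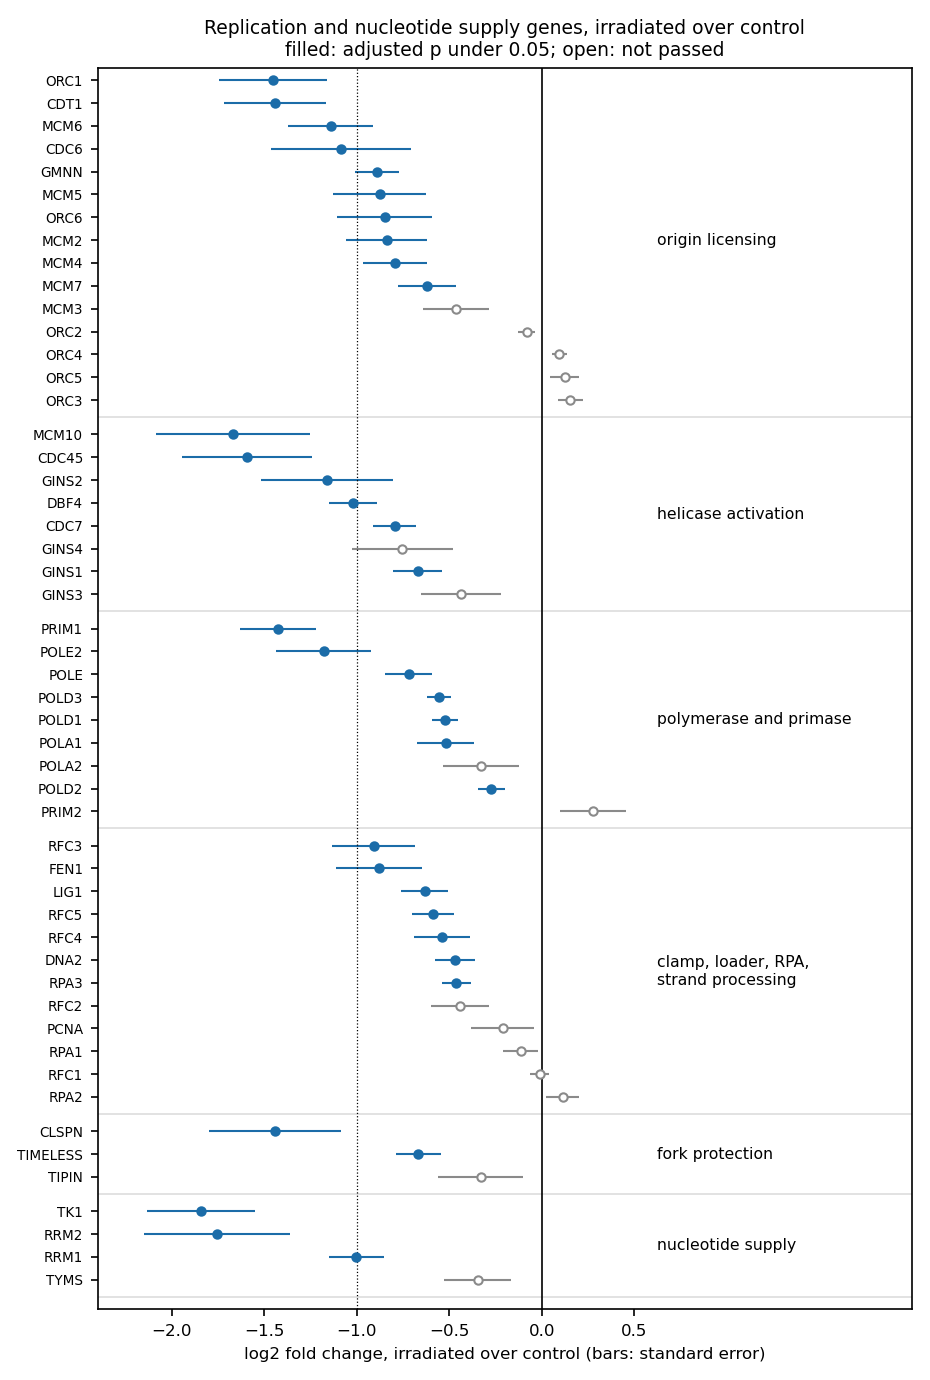
Log2 fold change of each of the 51 genes, irradiated over control, from edgeR with replicate number as a block, grouped by class and sorted within it. Bars are standard errors, filled points passed an adjusted p-value of 0.05, open points did not, and the dotted line marks a 2-fold fall. The 35 filled points all lie left of 0, from -1.84 for TK1 to -0.27 for POLD2.

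For 17 of the 51 genes all irradiated samples lay below all controls, where 12.0% of all genes tested showed this. These were ORC1, CDT1, GMNN, MCM6, CDC45, DBF4, PRIM1, POLD1, POLD3, POLE, POLE2, RFC5, RPA3, TIMELESS, RRM1, RRM2 and TK1. The other 18 genes that fell overlapped between the groups, and in each of them the overlap came from control 1 or control 3, since controls 2, 4 and 5 lay above every irradiated sample for 45 of the 51 genes, where 19.5% of all genes tested showed this. The irradiated samples were closer to each other than the controls were. The highest value exceeded the lowest by a median factor of 1.26 among irradiated samples and of 2.06 among controls over the 51 genes, and by 1.31 and 1.40 over all genes tested.

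**Figure D2:**
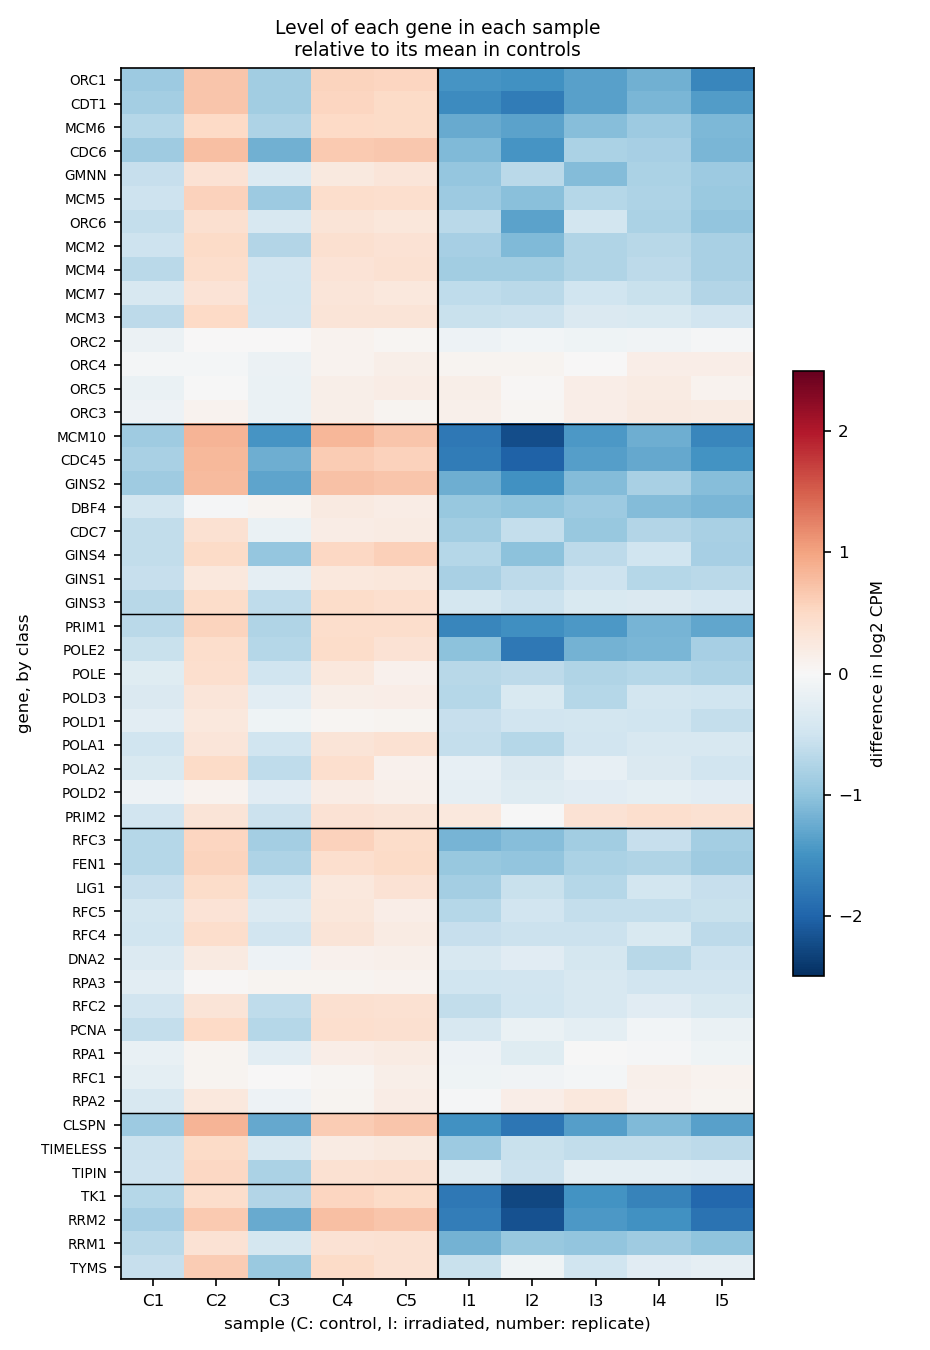
Level of each of the 51 genes (rows, in the 6 classes) in each of the 10 samples (columns, C for control and I for irradiated, with the replicate number), as the difference in log2 CPM from the mean of the gene in controls. Columns C1 and C3 are blue for nearly all genes and C2, C4 and C5 red, and the irradiated columns are blue except for rows such as ORC3 to ORC5, PRIM2, RFC1 and RPA2.

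Replication genes are known targets of E2F transcription factors. Promoters of genes that fell and of genes that did not pass the test are shown here for this reason. Promoter sequence from RefSeq (GRCh38.p14) was held for 44 of the 51 genes. The 250 bases before the start site were searched on both strands for the E2F words TTTCCCGC, TTTCGCGC, TTTGCCGC and TTTGGCGC, which can overlap each other, and for CCAAT. An E2F word was present in 16 of the 44 (36.4%), against 5.26% of the 12289 tested genes with an entry. Among genes that fell it was present in 10 of 30 (33.3%), and among genes that did not pass in 6 of 14 (42.9%). Not passing is not the absence of a fall. Of those 6 genes, MCM3, POLA2, PCNA, TIPIN and TYMS were called lower without replicates 1 and 3, and ORC3 was not. The 2 shares therefore do not compare genes that fell with unchanged genes, and the part of E2F was not tested. Other forms of the E2F site were not searched. CCAAT was present in 27 (61.4%), against 40.8% of the tested genes with an entry. A match is a run of letters and not a measured binding site. The stretches below run from 160 to 6 bases before the RefSeq start site, hold no annotated exon and are written 5′ to 3′ on the strand of the gene, with E2F words in capitals. MCM6, CDT1, GMNN, GINS2 and CDC7 fell, while PCNA and TIPIN did not pass the test. Both were called lower without replicates 1 and 3, a choice that favours larger falls.
MCM6: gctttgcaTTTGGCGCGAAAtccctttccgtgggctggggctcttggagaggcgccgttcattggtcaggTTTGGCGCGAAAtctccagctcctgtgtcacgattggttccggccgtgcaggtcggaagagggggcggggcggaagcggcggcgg
CDT1: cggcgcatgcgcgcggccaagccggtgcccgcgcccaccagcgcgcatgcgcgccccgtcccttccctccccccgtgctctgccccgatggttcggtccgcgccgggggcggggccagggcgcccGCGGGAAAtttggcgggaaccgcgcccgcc
GMNN: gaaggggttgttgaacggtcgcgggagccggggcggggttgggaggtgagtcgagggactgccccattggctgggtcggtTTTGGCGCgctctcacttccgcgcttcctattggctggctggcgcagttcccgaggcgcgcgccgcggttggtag
GINS2: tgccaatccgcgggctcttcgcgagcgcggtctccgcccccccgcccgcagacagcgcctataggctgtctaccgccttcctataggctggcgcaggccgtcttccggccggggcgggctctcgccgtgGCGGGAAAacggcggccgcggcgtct
CDC7: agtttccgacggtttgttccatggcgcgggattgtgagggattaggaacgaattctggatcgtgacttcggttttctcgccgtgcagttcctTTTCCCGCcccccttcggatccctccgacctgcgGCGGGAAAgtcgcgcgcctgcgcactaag
PCNA: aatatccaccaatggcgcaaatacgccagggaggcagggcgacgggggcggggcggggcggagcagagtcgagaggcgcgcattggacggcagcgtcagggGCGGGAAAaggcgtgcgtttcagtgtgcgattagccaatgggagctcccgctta
TIPIN: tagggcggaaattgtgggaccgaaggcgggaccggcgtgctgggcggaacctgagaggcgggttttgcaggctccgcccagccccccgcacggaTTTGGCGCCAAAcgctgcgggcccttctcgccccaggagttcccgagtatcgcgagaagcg
Their positions in GRCh38 are chr2:135876449-135876603 for MCM6 (minus strand), chr16:88803629-88803783 for CDT1 (plus strand), chr6:24775253-24775407 for GMNN (plus strand), chr16:85688960-85689114 for GINS2 (minus strand), chr1:91500952-91501106 for CDC7 (plus strand), chr20:5126628-5126782 for PCNA (minus strand) and chr15:66356691-66356845 for TIPIN (minus strand). In GMNN, GINS2, CDC7 and TIPIN a longer GENCODE transcript starts farther upstream, so that the stretch lies in an intron of it, and in MCM6, CDT1 and PCNA it lies upstream of the gene. MCM6 holds 4 matches, which overlap in 2 places, CDC7 and TIPIN hold 2 each and the others 1. In TIPIN both matches share bases.

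Among origin licensing genes, 10 of 15 fell, and the median log2 fold change of the class was -0.84. The genes that fell were ORC1, ORC6, CDC6, CDT1, GMNN and 5 of the MCM2-7 genes, whereas ORC2 to ORC5 and MCM3 did not pass. ORC1, on chromosome 1 from 52372829 to 52404423, encodes the largest ORC subunit, which is degraded and made again in each cell cycle. It stood at 2.80, 8.60, 2.89, 7.75 and 7.64 CPM in control replicates 1 to 5 and at 1.90, 1.85, 2.06, 2.29 and 1.70 CPM in irradiated replicates 1 to 5. All irradiated samples were below all controls, by a narrow margin from controls 1 and 3 and a wide one from the rest (log2 fold change -1.45, standard error 0.29, edgeR adjusted p = 0.00516). CDT1, the loading factor that geminin blocks, lies on chromosome 16 from 88803789 to 88809258. Its level was 6.34, 18.4, 6.27, 16.5 and 15.8 CPM in controls and 3.84, 3.37, 4.43, 5.18 and 4.34 CPM in irradiated samples, in the order of the replicate numbers. It fell without overlap (log2 fold change -1.44, standard error 0.28, edgeR adjusted p = 0.0041). GMNN, on chromosome 6 from 24774931 to 24786099, was at 9.03, 17.4, 10.7, 15.9 and 16.6 CPM in controls and 6.85, 8.39, 6.39, 7.78 and 7.13 CPM in irradiated samples. Geminin RNA thus fell as well, also without overlap and with a smaller spread among controls (log2 fold change -0.89, standard error 0.12, edgeR adjusted p = 0.000766). CDC6, the ATPase that joins ORC to receive the helicase, was at 7.96, 24.7, 6.36, 23.1 and 23.4 CPM in controls and 6.82, 5.30, 8.48, 8.23 and 6.63 CPM in irradiated samples. For CDC6 controls 1 and 3 lay inside the range of the irradiated samples, irradiated replicate 3 was above its own control, and the call was close to the threshold (log2 fold change -1.09, standard error 0.38, edgeR adjusted p = 0.0475). It was lost without replicate 1, 2, 4 or 5, over a range of adjusted p from 0.000105 to 0.159 in all settings, and without replicates 1 and 3 together the log2 fold change was -1.85.

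Of the 6 subunits of the MCM2-7 ring, 5 fell. MCM6, on chromosome 2 from 135839626 to 135876443, had the largest fall of them. It stood at 23.7, 54.9, 22.7, 54.6 and 54.0 CPM in controls and 16.3, 15.3, 18.5, 20.5 and 17.9 CPM in irradiated samples, which did not overlap (log2 fold change -1.14, standard error 0.23, edgeR adjusted p = 0.00494). MCM5 (-0.88), MCM2 (-0.84), MCM4 (-0.79) and MCM7 (-0.62) followed in log2 fold change, and in each of these 4 control 1 or control 3 overlapped the irradiated samples. MCM3 did not pass, at 53.2, 118, 59.8, 105 and 104 CPM in controls and 57.0, 57.3, 64.7, 64.4 and 60.2 CPM in irradiated samples (log2 fold change -0.47, standard error 0.18, edgeR adjusted p = 0.0648). Controls 2, 4 and 5 lay far above all irradiated samples for MCM3, and controls 1 and 3 below their irradiated partners. MCM3 was called lower without replicate 1, without replicate 3 and without both. With all samples it was called lower by DESeq2, with library size only and with a minimum of 1 count. Its adjusted p ranged from 0.000165 to 0.199 over all settings. The log2 fold changes of the 6 subunits lay between -1.14 and -0.47, with standard errors of 0.16 to 0.25. These errors belong to single genes measured in the same samples and do not measure differences between subunits, which were not tested. Exons of another gene on the opposite strand cover 23.6% of the MCM2 exons, and reads there are lost to the count.

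ORC6, the subunit that docks on the ORC ring, fell (log2 fold change -0.85), whereas ORC2 to ORC5, which form that ring with ORC1, did not pass. ORC2 was at 26.9, 29.8, 29.9, 31.7 and 30.6 CPM in controls and 27.4, 28.3, 27.5, 28.2 and 29.0 CPM in irradiated samples. ORC3 was at 15.1, 17.8, 14.8, 18.3 and 17.3 CPM in controls and 18.0, 17.2, 18.6, 19.5 and 19.2 CPM in irradiated samples. For ORC2 the irradiated samples lay inside the control range and below 4 of the 5 controls, and for ORC3 they tended to the upper end of the range of all samples. ORC4 was at 36.3, 36.4, 33.8, 39.9 and 41.4 CPM in controls and 39.1, 39.5, 37.5, 41.9 and 41.9 CPM in irradiated samples. ORC5 was at 10.6, 11.7, 10.6, 13 and 13.5 CPM in controls and 13.1, 12.0, 13.2, 13.5 and 12.6 CPM in irradiated samples. The log2 fold changes were -0.08 for ORC2, 0.15 for ORC3, 0.09 for ORC4 and 0.12 for ORC5, with standard errors of 0.041 to 0.078. ORC4 was higher after irradiation in 5 of 5 pairs without passing the test (edgeR adjusted p = 0.0965). These 4 genes also differed little among the controls, with a median ratio of highest to lowest control of 1.23. The count of licensing genes that fell was 11 without replicates 1 and 3, 7 without replicate 2, when ORC6, CDC6 and MCM5 were not called, and 5 without replicate 4 or without replicate 5, when MCM2 and MCM7 were not called either.

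**Figure D3:**
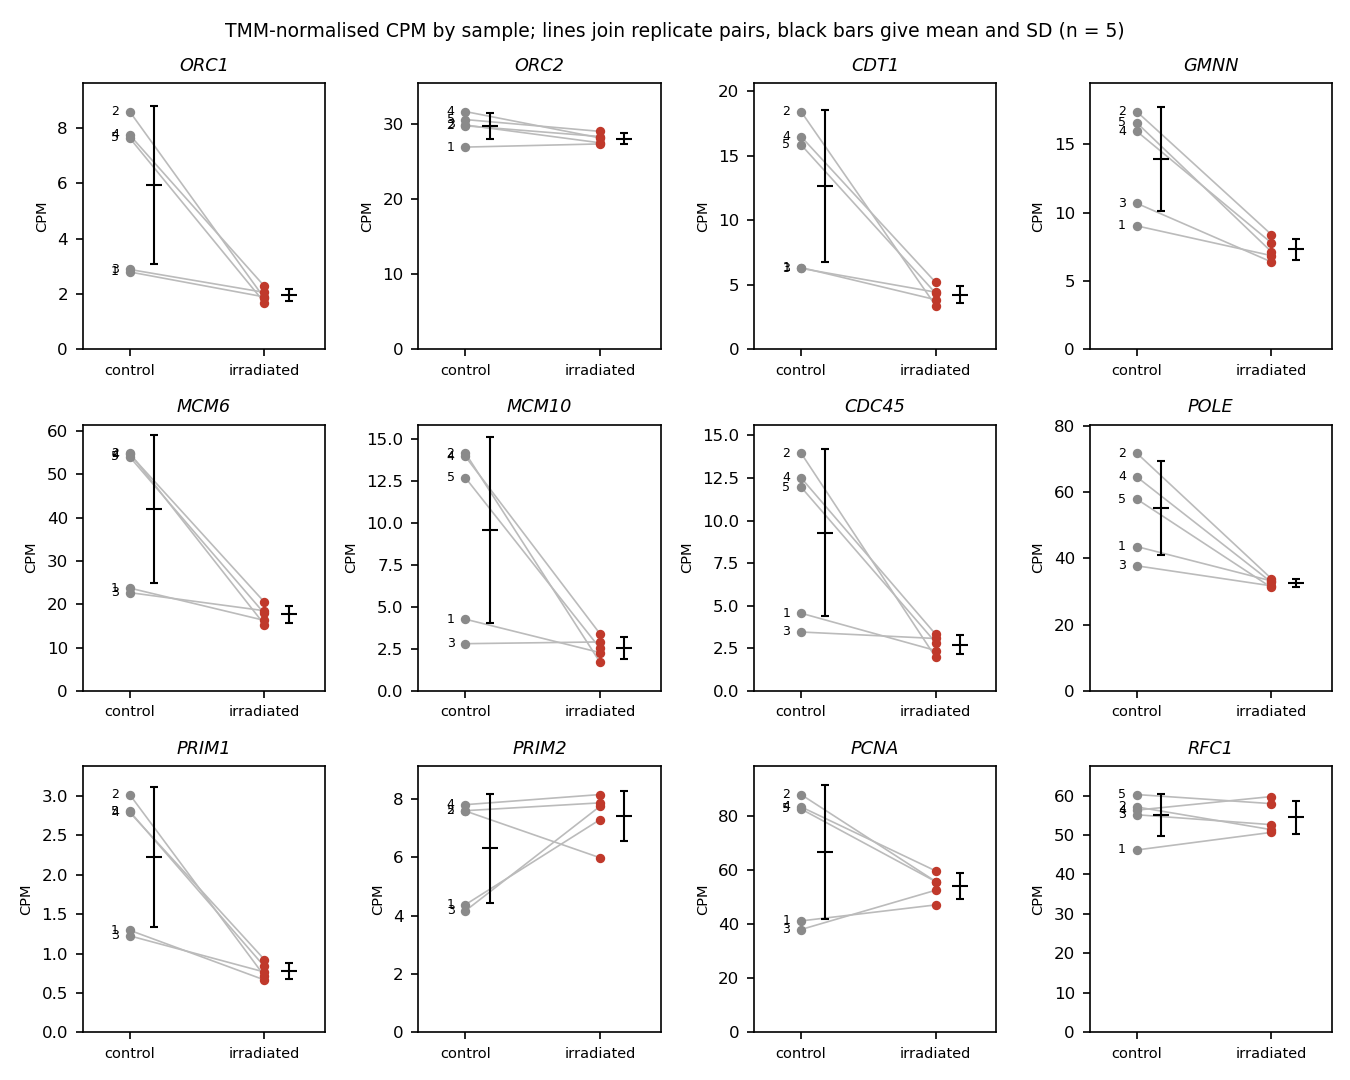
TMM-normalised CPM of 12 of the genes in each sample (grey for control, red for irradiated), with a line joining the 2 samples of a pair, the replicate number beside each control and the mean with SD (n = 5) as a black bar. For CDT1 the controls lie at 6.27 to 18.4 and the irradiated samples at 3.37 to 5.18 CPM, while the groups of ORC2 and RFC1 overlap, and the PCNA and PRIM2 lines of pairs 1 and 3 go up.

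Of the 8 genes that turn the loaded helicase on, 6 fell, with a class median of -0.91. MCM10, a factor that stimulates the helicase once it is assembled, lies on chromosome 10 from 13161558 to 13211110. It stood at 4.27, 14.2, 2.81, 14.0 and 12.7 CPM in controls and 2.28, 1.70, 2.92, 3.40 and 2.53 CPM in irradiated samples. Control 3 lay among the irradiated samples and the other controls above them (log2 fold change -1.67, standard error 0.42, edgeR adjusted p = 0.0131). CDC45, a subunit of the active helicase, lies on chromosome 22 from 19479457 to 19520612. Its level was 4.56, 14.0, 3.46, 12.5 and 12.0 CPM in controls and 2.37, 1.97, 3.08, 3.32 and 2.84 CPM in irradiated samples. The groups did not overlap for CDC45, although control 3 lay just above the highest irradiated sample (log2 fold change -1.59, standard error 0.35, edgeR adjusted p = 0.00768). GINS2 was at 3.82, 12.2, 2.84, 11.8 and 11.5 CPM in controls and 3.04, 2.49, 3.34, 4.05 and 3.38 CPM in irradiated samples, and here controls 1 and 3 overlapped the irradiated range (log2 fold change -1.16, standard error 0.36, edgeR adjusted p = 0.0298). The remaining GINS subunits, which bind the helicase together with CDC45, had smaller log2 fold changes. GINS1 fell (log2 fold change -0.67). GINS3 was at 2.78, 6.16, 2.91, 6.19 and 6.01 CPM in controls and 3.32, 3.12, 3.47, 3.49 and 3.37 CPM in irradiated samples. GINS4 was at 5.19, 11, 4.04, 11.3 and 11.9 CPM in controls and 4.80, 3.88, 5.00, 5.63 and 4.47 CPM in irradiated samples. For both, controls 2, 4 and 5 were well above the irradiated samples and control 3 was below its irradiated partner. GINS3 (log2 fold change -0.44, edgeR adjusted p = 0.134) and GINS4 (-0.76, adjusted p = 0.0536 from the same test) did not pass, and both were called lower without replicate 3, GINS4 also with every other tool, scaling and filter tried. Overlapping exons of the opposite strand cover 23.4% of the GINS4 and 10.9% of the GINS3 exons.

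Among the controls DBF4 varied less than CDC7. The ratio of highest to lowest control was 1.61 for DBF4 and 1.97 for CDC7, where the median over all 51 genes was 2.06. DBF4, the activator of CDC7, fell, with 10.1 ± 1.77 CPM in control and 4.91 ± 0.337 CPM in irradiated samples (SD, n = 5 each), no overlap and control 3 in the upper part of the control range (log2 fold change -1.02, standard error 0.13, edgeR adjusted p = 0.000574). CDC7 itself fell (log2 fold change -0.80, standard error 0.12). Its samples overlapped only at control 1, at 6.38 CPM against 6.39 CPM in irradiated replicate 2. Without replicate 4 or 5 MCM10 and GINS2 were not called, and without replicate 2 GINS2 was not.

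Polymerase and primase genes fell in 7 of 9 cases, with a class median of -0.52. PRIM1, the catalytic subunit of primase, which makes the RNA start of every new strand, lies on chromosome 12 from 56730438 to 56752374. It stood at 1.30, 3.02, 1.23, 2.79 and 2.81 CPM in controls and 0.666, 0.717, 0.767, 0.925 and 0.837 CPM in irradiated samples, without overlap (log2 fold change -1.42, standard error 0.21, edgeR adjusted p = 0.00109). Some reads may be lost from this gene, since 15.1% of its exon length is shared with other genes on its own strand. PRIM2, the large primase subunit, did not share this fall. Its level was 4.38, 7.59, 4.17, 7.81 and 7.60 CPM in controls and 7.30, 5.99, 7.75, 8.15 and 7.87 CPM in irradiated samples. Controls 1 and 3 were the low samples, their irradiated partners lay with the other controls, and the test was not passed (log2 fold change 0.28, standard error 0.18, edgeR adjusted p = 0.243). Without replicates 1 and 3 the log2 fold change of PRIM2 was -0.09. Near-identical copies of PRIM2 exist in the genome and can take up its reads, so that its value is uncertain.

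POLE2 and POLE encode subunits of the leading-strand polymerase epsilon. POLE2 was at 1.96, 3.93, 1.77, 3.99 and 3.75 CPM in controls and 1.42, 0.836, 1.28, 1.32 and 1.64 CPM in irradiated samples (log2 fold change -1.18, standard error 0.26, edgeR adjusted p = 0.00732). POLE, its catalytic subunit, on chromosome 12 from 132623753 to 132687376, was at 43.5, 71.8, 37.7, 64.6 and 57.9 CPM in controls and 33.2, 33.9, 31.7, 32.8 and 31.2 CPM in irradiated samples (log2 fold change -0.72, standard error 0.13, edgeR adjusted p = 0.00277). Neither gene overlapped between the groups, and irradiated replicate 2 was the lowest sample for POLE2. The lagging-strand polymerase delta fell less, with log2 fold changes of -0.55 for POLD3, -0.52 for its catalytic subunit POLD1 and -0.27 for POLD2. POLD1 and POLD3 did not overlap between the groups and had standard errors of 0.071 and 0.065. POLA1, the catalytic subunit of polymerase alpha, fell (-0.52). POLA2, its regulatory subunit, was at 2.53, 4.59, 2.10, 4.42 and 3.53 CPM in controls and 2.84, 2.55, 2.84, 2.56 and 2.36 CPM in irradiated samples. Controls 2, 4 and 5 were again the highest, controls 1 and 3 were at or below the irradiated level, and POLA2 did not pass (log2 fold change -0.33, edgeR adjusted p = 0.22). The calls of POLA1 and POLD2 were lost without replicate 2, 4 or 5.

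The sliding clamp and its loader, the single-strand binding protein RPA and the strand-processing enzymes had the class median nearest 0, at -0.47, with 7 of 12 genes lower. PCNA, the clamp that tethers polymerases to DNA, lies on chromosome 20 from 5114953 to 5126626 and is also a known target of p53. Its level was 41.1, 87.8, 38.0, 83.2 and 82.4 CPM in controls and 47.0, 55.7, 52.5, 59.6 and 55.6 CPM in irradiated samples. Irradiated samples were lower than their controls in pairs 2, 4 and 5 and higher in pairs 1 and 3, and PCNA did not pass (log2 fold change -0.21, standard error 0.17, edgeR adjusted p = 0.333). Without replicates 1 and 3 it was called lower (log2 fold change -0.59, edgeR adjusted p = 0.000171), and its adjusted p ranged from 0.000171 to 0.692 over all settings. PCNA was called in no other setting.

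The clamp loader consists of RFC1 and 4 smaller subunits. RFC3, on chromosome 13 from 33818069 to 33966558, was at 5.30, 12.5, 4.79, 12.9 and 12.0 CPM in controls and 3.90, 4.14, 4.76, 5.80 and 4.84 CPM in irradiated samples. It had the largest fall of the loader, with controls 1 and 3 inside the irradiated range (log2 fold change -0.91, standard error 0.22, edgeR adjusted p = 0.0125), and the call was lost without replicate 5. RFC5 (-0.59) and RFC4 (-0.54) also fell, while RFC1 and RFC2 did not pass. RFC1, the large subunit, was at 46.2, 57.1, 55.1, 56.3 and 60.3 CPM in controls and 50.7, 51.4, 52.6, 59.7 and 58.0 CPM in irradiated samples. RFC2 was at 15.9, 27.9, 14.4, 29.6 and 29.2 CPM in controls and 14.5, 15.9, 16.9, 18.4 and 17.1 CPM in irradiated samples. RFC1 covered the same range in both groups (log2 fold change -0.01, standard error 0.052). RFC2 had high values in controls 2, 4 and 5 only, and it was just short of the threshold (log2 fold change -0.44, edgeR adjusted p = 0.051, with a range of 7.06e-05 to 0.172 over all settings).

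RPA3, the smallest subunit of the single-strand binding protein, fell without overlap (log2 fold change -0.46, standard error 0.076). Neither of its partners passed. RPA1 was at 72.3, 86.4, 68.0, 92.4 and 95.0 CPM in controls and 75.6, 66.7, 81.7, 80.8 and 75.7 CPM in irradiated samples. RPA2 was at 16.0, 25.2, 19.3, 22.2 and 24.0 CPM in controls and 20.5, 23.7, 25.2, 22.8 and 22.1 CPM in irradiated samples. For RPA2 the groups overlapped widely (log2 fold change 0.11). For RPA1 controls 1 and 3 lay inside the irradiated range and controls 2, 4 and 5 above it (log2 fold change -0.11). RPA1 was called lower without replicates 1 and 3, a choice that favours larger falls, and in no other setting. Its adjusted p ranged from 0.00228 to 0.757 over all settings. The flap endonuclease FEN1, on chromosome 11 from 61792911 to 61797238, which trims Okazaki fragments, was at 17.7, 42.6, 17.0, 38.7 and 40.2 CPM in controls and 14.9, 14.5, 16.6, 17.2 and 15.6 CPM in irradiated samples. The DNA ligase LIG1, on chromosome 19 from 48115445 to 48170603, which joins those fragments, was at 17.5, 35.9, 18.6, 31.3 and 33.4 CPM in controls and 14.6, 17.7, 16.0, 19.0 and 17.6 CPM in irradiated samples. Both fell and were lower in all 5 pairs, although control 3 and, for LIG1, control 1 lay inside the irradiated range (log2 fold change -0.88, standard error 0.23 for FEN1 and -0.63, 0.13 for LIG1). DNA2, a nuclease and helicase that acts on long flaps, fell as well (-0.47). The calls of FEN1 and RFC4 were lost without replicate 4 or 5, that of RFC4 also without replicate 2, and the count of fork genes that fell, 22 of 32, was 14 without replicate 5 and 29 without replicates 1 and 3.

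Claspin, Timeless and Tipin hold the fork together when it stalls. CLSPN, on chromosome 1 from 35720218 to 35769978, was at 9.82, 33.3, 7.64, 28.8 and 29.7 CPM in controls and 6.48, 5.24, 7.09, 8.63 and 7.17 CPM in irradiated samples. Control 3 lay within the irradiated range and the other controls above it (log2 fold change -1.44, standard error 0.36, edgeR adjusted p = 0.0128), and the call was lost without replicate 5. TIMELESS, on chromosome 12 from 56416363 to 56449426, was at 33.0, 66.3, 36.4, 55.2 and 56.4 CPM in controls and 25.5, 32.3, 31.4, 31.1 and 30.5 CPM in irradiated samples. It fell without overlap, with irradiated replicate 1 below the others (log2 fold change -0.67, standard error 0.12, edgeR adjusted p = 0.00319). TIPIN, the partner of Timeless, was at 2.98, 6.12, 2.47, 5.60 and 5.64 CPM in controls and 3.43, 2.96, 3.62, 3.59 and 3.55 CPM in irradiated samples. It did not pass (log2 fold change -0.33, edgeR adjusted p = 0.27), with controls 1 and 3 below all or most irradiated samples, and a pseudogene on the same strand covers 21.1% of its exons.

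The nucleotide supply genes had the lowest class median, -1.38, with 3 of 4 genes lower and the same 3 past 2-fold. TK1, the cytosolic thymidine kinase of dividing cells, lies on chromosome 17 from 78174091 to 78187233. It stood at 28.1, 62.4, 27.9, 66.8 and 64.7 CPM in controls and 13.3, 9.57, 16.3, 14.5 and 11.9 CPM in irradiated samples. Its fall was the largest of the 51 genes, with no overlap and the lowest value in irradiated replicate 2 (log2 fold change -1.84, standard error 0.29, edgeR adjusted p = 0.00174). RRM2, the small subunit of the ribonucleotide reductase that makes deoxynucleotides in S phase, lies on chromosome 2 from 10120698 to 10211725. Its level was 32.5, 90.1, 24.0, 97.4 and 92.5 CPM in controls and 17.4, 12.7, 21.3, 20.2 and 16.0 CPM in irradiated samples. Controls 2, 4 and 5 were far above controls 1 and 3, and no irradiated sample reached the lowest control (log2 fold change -1.76, standard error 0.39, edgeR adjusted p = 0.00834). RRM1, the large subunit, on chromosome 11 from 4094707 to 4138932, was at 28.3, 57.5, 33.1, 57.4 and 58.7 CPM in controls and 19.9, 23.4, 22.6, 24.2 and 22.3 CPM in irradiated samples. It fell without overlap too, with a smaller standard error (log2 fold change -1.0, standard error 0.15, edgeR adjusted p = 0.00119). Without replicates 1 and 3 the log2 fold changes were -2.46 for TK1, -2.55 for RRM2 and -1.33 for RRM1, and these 3 were called lower in every setting tried. All 4 nucleotide supply genes fell without replicates 1 and 3.

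TYMS, the thymidylate synthase, did not pass. It was at 5.16, 11.8, 4.04, 10.7 and 9.96 CPM in controls and 5.19, 7.09, 5.39, 6.27 and 6.56 CPM in irradiated samples, with control 3 the lowest sample of all and controls 2, 4 and 5 the highest (log2 fold change -0.35, edgeR adjusted p = 0.154, with a range of 0.000339 to 0.393 over all settings). Exons of ENOSF1 and TYMSOS on the opposite strand cover 47.9% of its exon length, so that a large part of its reads cannot be counted.

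**Figure D4:**
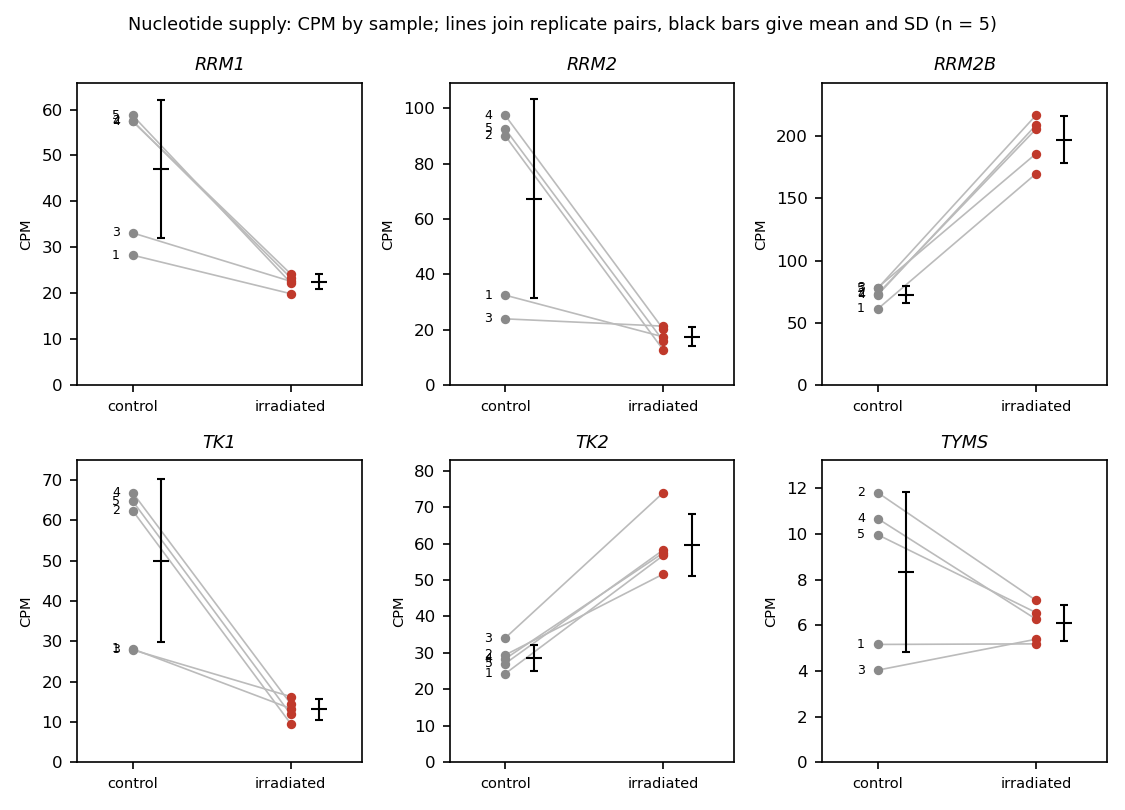
TMM-normalised CPM of RRM1, RRM2, RRM2B, TK1, TK2 and TYMS in each sample (grey for control, red for irradiated), with lines joining pairs, replicate numbers beside the controls and the mean with SD (n = 5) as black bars. The lines of RRM1, RRM2 and TK1 go down in every pair and those of RRM2B and TK2 go up, from 61.1 to 78.3 CPM in controls to 169.6 to 216 CPM in irradiated samples for RRM2B.

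The shares that fell were similar in the 3 groups of genes, at 66.7% of licensing, 68.8% of fork and 75.0% of nucleotide supply genes, where 22.7% of all genes tested fell. The medians differed more, at -0.84, -0.57 and -1.38, and the last rests on 4 genes. Past 2-fold were 4 of 15 licensing, 7 of 32 fork and 3 of 4 nucleotide supply genes. With ORC2 to ORC5 set aside, 10 of the other 11 licensing genes fell and their median was -0.88. These are descriptions of named lists, and no difference between the classes was tested.

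By pair, the median log2 difference between irradiated and control sample over the 51 genes was -0.24 in pair 1, -1.02 in pair 2, -0.07 in pair 3, -0.88 in pair 4 and -0.93 in pair 5, where that of all genes tested lay between -0.03 and 0.02. The irradiated sample was lower for 37, 49, 30, 45 and 48 of the 51 genes in pairs 1 to 5. Among the 19006 genes tested it was lower for 9530, 8892, 9884, 9827 and 9462 in the same order. Pairs 1 and 3, whose controls were low, thus showed small differences, and the nucleotide supply genes kept the largest medians in them, at -0.70 in pair 1 and -0.36 in pair 3. Of the 51 genes, 28 were lower in all 5 pairs, where 25.0% of all genes tested were. ORC4 alone was higher in all 5, where 5019 of the 19006 genes tested were. CDC6 (0.41), GINS2 (0.23), MCM5 (0.20), MCM10 (0.05), MCM7 (0.02), POLA1 and POLD2 fell in the test but were not lower in the irradiated sample of pair 3, where the values in parentheses are log2 differences.

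Whether partners that act in 1 complex or step changed unequally was tested on the ratio of their counts within each sample, which no normalisation affects. An exact two-sided permutation test of the 5 irradiated against the 5 control samples was applied to 6 ratios, with p-values adjusted over the 6. The ratios were chosen with earlier results of these data known, and in each the gene with the larger fitted fall is the numerator. The p-values are thus for gene pairs picked from the same values and are no independent evidence of an unequal change. The log2 ratio of ORC1 to ORC2 counts went from -2.49 ± 0.76 in control to -3.85 ± 0.18 in irradiated samples (SD, n = 5 each). It was lower in 5 of 5 pairs by a mean of 1.36, with no overlap (exact permutation p = 0.00794, the smallest the design allows, adjusted p = 0.0476). The ratio of RRM2 to RRM1 differed by -0.74 (adjusted p = 0.0571 in the exact permutation test) and was lower in 4 of 5 pairs, the exception being pair 3. For RFC3 to RFC1 the difference was -0.89, for CDT1 to GMNN -0.55 and for POLE2 to POLE -0.47, each with an adjusted p of 0.0571 in the same exact test. These 4 ratios did not pass. The kinase pair DBF4 to CDC7 differed least, by -0.23 (adjusted p = 0.159 in the exact permutation test), and was lower in 4 of 5 pairs. The test does not use the pairs. Within the 5 pairs an exact sign-flip test cannot go below p = 0.0625, so that no ratio could pass it, and ORC1 to ORC2 and POLE2 to POLE, both lower in 5 of 5 pairs, reached that value.

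**Figure D5:**
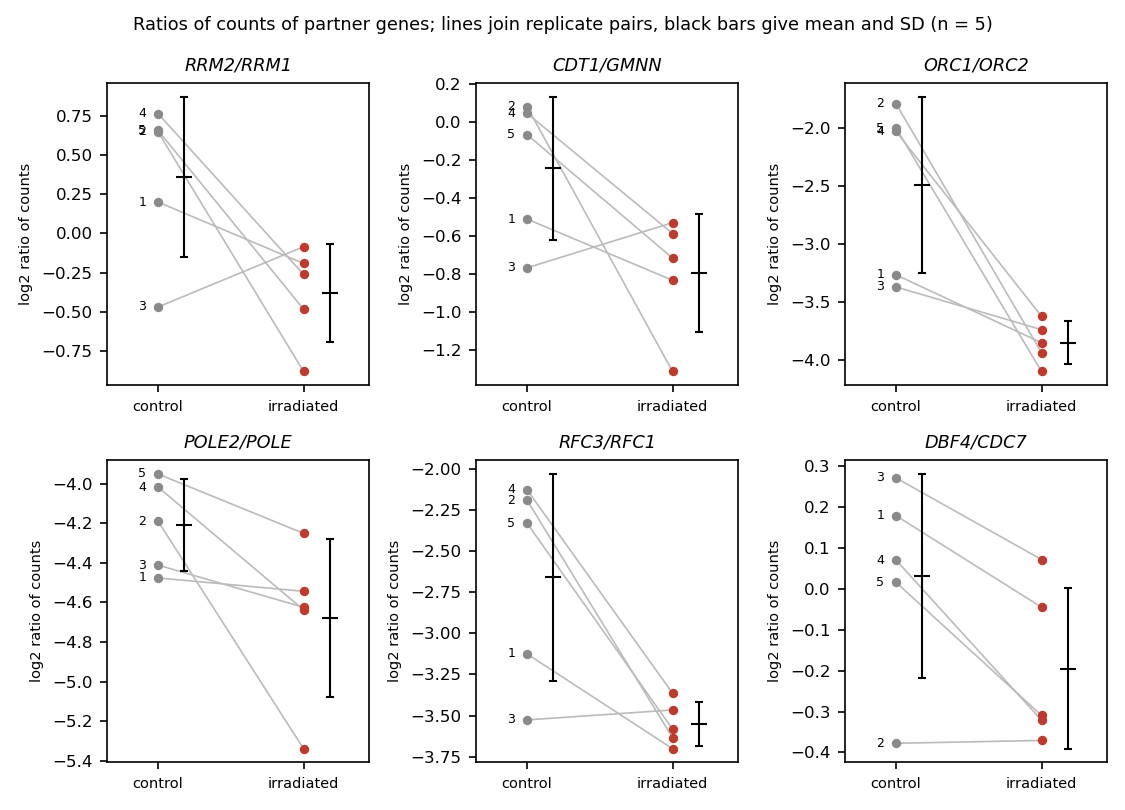
Log2 ratio of the counts of 6 partner genes in each sample (grey for control, red for irradiated), with lines joining pairs and the mean with SD (n = 5) as black bars. Only for ORC1/ORC2 are all irradiated samples, at -4.10 to -3.62, below all controls, at -3.37 to -1.79. The DBF4/CDC7 groups overlap, and control replicates 1 and 3 are at the low end of the controls in the other panels but at the high end for DBF4/CDC7.

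A list of 32 further replication factors showed the same direction. Of the 31 that reached 200 counts, 21 fell, where 22.7% of all genes tested fell, and 1 rose, where 23.9% did. The gene that rose was POLD4, the smallest polymerase delta subunit (log2 fold change 0.30). RNASEH2A was not tested. The list was chosen with results of these data known, as were the 51 genes, and its median log2 fold change was -0.52. TICRR, which brings CDC45 to the helicase, was at 3.67, 9.30, 2.74, 9.61 and 8.46 CPM in controls and 1.59, 0.941, 1.38, 2.03 and 1.57 CPM in irradiated samples (log2 fold change -2.02, standard error 0.32, edgeR adjusted p = 0.00166). EXO1, a DNA exonuclease, was at 2.84, 9.67, 2.06, 8.46 and 8.64 CPM in controls and 1.44, 1.03, 1.58, 1.81 and 1.62 CPM in irradiated samples (log2 fold change -1.86, standard error 0.39, edgeR adjusted p = 0.00603). Neither overlapped between the groups. DSCC1, part of an alternative clamp loader, was at 2.25, 8.08, 2.27, 7.01 and 6.69 CPM in controls and 1.85, 1.31, 2.34, 2.7 and 2.10 CPM in irradiated samples, where controls 1 and 3 overlapped the irradiated range (log2 fold change -1.18, standard error 0.36, edgeR adjusted p = 0.0297). These 3 were the largest falls of the list.

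Of 23 further nucleotide enzymes, 6 fell and 6 rose (26.1% each), close to the 22.7% and 23.9% of all genes tested, and their median log2 fold change was 0.03. RRM2B encodes a second small subunit of ribonucleotide reductase, which p53 is known to induce and which serves cells outside S phase. It stood at 61.1, 73.4, 78.3, 72.4 and 77.7 CPM in controls and 169.6, 205, 186, 209 and 216 CPM in irradiated samples. RRM2B rose without overlap and with little spread among controls (log2 fold change 1.44, standard error 0.052, edgeR adjusted p = 8.62e-06), while RRM2 and RRM1 fell. TK2, the mitochondrial thymidine kinase, was at 24.3, 29.4, 34.1, 28.4 and 27.1 CPM in controls and 56.7, 51.6, 73.9, 57.4 and 58.3 CPM in irradiated samples (log2 fold change 1.05, standard error 0.063, edgeR adjusted p = 2.97e-05). CTPS1, a CTP synthase, was at 50.5, 74.2, 69.7, 72.1 and 65.1 CPM in controls and 99.1, 90.2, 132, 104 and 98.6 CPM in irradiated samples (log2 fold change 0.66, standard error 0.099, edgeR adjusted p = 0.00133). Both rose without overlap, whereas TK1 fell. Among the falls, named after their values were seen, were DTYMK (-0.60) and DUT (-0.54), which act in the thymidylate pathway, and the purine enzymes GMPS (-0.42) and PAICS (-0.40), in log2 fold change. Over both further lists 27 genes fell, 21 of them replication factors and 6 nucleotide enzymes. The count was 17 without replicate 4, 16 without replicate 5 and 36 without replicates 1 and 3, a choice that favours larger falls. Over all genes tested, 4307 of 19006 fell with all samples and 2972 of 18264 without replicate 4. Without replicate 5 it was 2943 of 18244, and without replicates 1 and 3 it was 4185 of 17388.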

How the data were processed

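Bulk RNA-seq of 10 samples of RPTEC/TERT1 cells was used. The authors trimmed adapters (Trim-Galore), aligned reads to GRCh38 (STAR) and deposited the raw counts that STAR gave for each GENCODE gene. Annotation release and strand setting were not given in the sources used here, and the labels and published methods name different library kits. Every protein-coding gene that lay entirely beneath opposite-strand exons (17 genes) was at 0 counts, against 10.6% of 12822 genes free of such overlap, so reads shared by overlapping genes are treated as lost. Of the identifiers, 61415 matched a symbol, and all 10 columns were used.

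Groups and replicate numbers came from the sample labels. No replicates of a group were alike within sampling noise (the smallest chi-square per gene was 7.68). Deviations from group means correlated at 0.217 to 0.508 between samples of the same number, so the numbers were taken as pairs, as in the published model. Samples of different number reached 0.317 (control 5 with irradiated 4) and 0.295 (control 4 with irradiated 5). Within each group, samples 4 and 5 lay nearest to each other (chi-square per gene 13.1 in control and 7.68 in irradiated samples, against 35.4 to 187 for all other duos of a group).

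The test was run with edgeR 4.0.16 in R 4.3.3 (TMM, glmQLFit, glmQLFTest, replicate number as a block) on genes with at least 200 counts over all samples, with Benjamini-Hochberg adjustment and a threshold of 0.05. Standard errors are absolute log2 fold changes over the root of the F statistic. Past 2-fold means an absolute log2 fold change over 1 at that threshold. The parts of depth and of the spread between replicates in the precision were not tested. Alternatives were DESeq2 1.42.0, limma-voom (limma 3.58.1), library size only, upper-quartile factors, a minimum of 1 count, filterByExpr, no replicate block, each replicate left out, and replicates 1 and 3 left out together. The scripts were tested on simulated data. Ratios were tested in Python 3.11.15 and figures drawn with matplotlib 3.10.9.

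The members, lists, ratios and alternatives were chosen with earlier results of these data known. Values in every sample are given for members that did not pass, for the 3 largest changes per class among those called and for CDT1, GMNN, CDC6, PCNA, RRM1 and RRM2, and from the further lists for the 3 largest changes in each direction. Coordinates and exon overlap came from a GENCODE annotation of GRCh38. Results of some genes of the further lists are not reported here.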

Additional observations from a re-analysis of the deposited data

Results flagged for a closer look

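A sample was singled out where its gap to the nearest of the others in its group exceeded Dixon's limit. Over 126 groups of 5 values this singled out 4, fewer than the 6.3 that chance alone would give. RPA3 was at 6.85 CPM in control replicate 1, below the 8.36 to 8.63 CPM of the other controls, and at 6.23 CPM in irradiated replicate 3, above the 5.82 to 5.89 CPM of the other irradiated samples. TIPIN was at 2.96 CPM in irradiated replicate 2 and 3.43 to 3.62 CPM in the others. TIMELESS was at 25.5 CPM in irradiated replicate 1 and 30.5 to 32.3 CPM in the others. No sample was singled out more than once. Where controls 1 and 3 are both low, neither has a large gap to its nearest neighbour, so that this limit does not mark them.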

How the results depend on the processing

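The 35 genes that fell were all called again with DESeq2 (38 genes lower), limma-voom (37), library size only (39), upper-quartile factors (37), a minimum of 1 count (40), filterByExpr (37) and without replicates 1 and 3 (44, a choice that favours larger falls). Without the replicate block 36 genes fell, 15 past 2-fold, and this changed no call of the 51 genes other than GINS4, which was then lower. With each replicate left out, 22 to 41 members were lower, 0 to 1 higher and 8 to 20 past 2-fold, 5 to 11 licensing and 14 to 26 fork genes were lower, and of the further lists 16 to 28 were lower. Without replicates 1 and 3 the count past 2-fold was 23. Over all genes tested, 4307 of 19006 fell in the main fit and 2943 to 4047 with each replicate left out. DESeq2 called 4066 of the 19006 lower, limma-voom 4347, library size only 5894, upper-quartile factors 5005 and the fit without the replicate block 3366. With a minimum of 1 count 4976 of 44263 fell and with filterByExpr 4495 of 21924. Without replicates 1 and 3 it was 4185 of 17388. The cause of these shifts was not tested.

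The log2 ratio difference of RRM2 to RRM1 was -1.02 to -0.54 with each replicate left out and -1.23 without replicates 1 and 3, that of ORC1 to ORC2 -1.60 to -1.16 and -1.94, that of CDT1 to GMNN -0.75 to -0.34 and that of RFC3 to RFC1 -1.13 to -0.75. Without replicate 3 the ORC1, RRM2, CDT1 and RFC3 ratios had an adjusted p of 0.0429 in the exact permutation test, and without replicate 1, 2, 4 or 5 that of ORC1 to ORC2 was 0.0857 to 0.171. With 4 against 4 samples and no overlap the unadjusted p is the smallest possible, so these adjusted values depend on the other ratios and say nothing about stability. A replicate block leaves the mean differences of the ratios as they are by arithmetic, so that this comparison tests nothing about the pairing.

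Small differences turned in sign without replicates 1 and 3 for ORC5 (-0.0161), PRIM2 (-0.0882) and RPA2 (-0.075), and for RFC1 without replicate 2, 3 or 5 (-0.0463 to 0.0317 with each replicate left out). None of these was called. Over single genes, 664 values kept their direction and side of the threshold, 36 passed it newly, 35 no longer passed and 6 turned. The lowest count in a sample was 48 for PRIM1 and 56 for POLE2, and the part of depth in the spread between replicates was not tested.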

Other observations

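Among the further replication factors, all of the following were named after their values were seen. CHAF1A and CHAF1B, subunits of the assembly factor that places histones behind the fork, fell without overlap between the groups (log2 fold change -0.83 and -1.06). DNMT1, which copies DNA methylation onto the new strand, was at 109, 172, 143, 164 and 159 CPM in controls and 88.8, 95.1, 93.5, 96.0 and 91.9 CPM in irradiated samples, and fell without overlap (log2 fold change -0.67). Its partner UHRF1 fell with control 3 below all irradiated samples (-0.81). The histone chaperone subunits SSRP1 and SUPT16H fell by small amounts with small errors (log2 fold change -0.52, standard error 0.053, and -0.24, 0.056). The checkpoint kinase genes did not pass. ATR was at 49.1, 54.6, 56.2, 54.4 and 52.6 CPM in controls and 55.4, 49.5, 52.3, 53.0 and 55.2 CPM in irradiated samples. CHEK1 was at 13, 24.6, 16.9, 24.3 and 23.6 CPM in controls and 18.3, 14.6, 19.6, 18.6 and 18.4 CPM in irradiated samples. ATR covered the same range in both groups, while CHEK1 was highest in controls 2, 4 and 5 (log2 fold change -0.01 and -0.16).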
